A study of Mus musculus with 20 samples.

Results

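The 34 genes described here encode ligands, receptors, SMAD proteins and secreted antagonists of the BMP and TGF-beta pathway. They were taken from a list of gene symbols, and each symbol matched 1 of the 22089 protein-coding genes with a unique symbol in GENCODE's annotation of the mouse genome NCBIM37 (mm9). The group held 12 ligands, 11 receptors, 8 SMADs and 3 antagonists. Each gene was measured over its window, the gene body plus 5 kb on each side. The windows were 11.9 to 342 kb long with a median of 63.4 kb, against a median of 25.4 kb for all genes, and 10 of the 34 windows also held part of another protein-coding gene, so that a peak there could belong to either. They were those of *Bmp4*, *Bmp6*, *Bmpr1b*, *Acvr1*, *Acvr2a*, *Tgfb1*, *Tgfb3*, *Smad3*, *Smad9* and *Chrd*.

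The measurement was a pull-down of 5-formylcytosine (5fC), an oxidation product of 5-methylcytosine, in which 5fC is tagged with a biotin probe, captured and sequenced. Tissues were dissected from mouse embryos at E11.5, both wild type (WT) and *Tdg* null. TDG, thymine DNA glycosylase, is the enzyme that removes 5fC from DNA. Null embryos lack its catalytic part in every cell, through a deletion that carries a neomycin cassette. Both genotypes came from intercrosses of heterozygotes. Hindbrain gave 4 WT and 4 null libraries from litters A, O, Q and Z, numbered 1 to 4 in that order, with 1 embryo of each genotype per litter. Heart, carcass and liver gave 2 WT and 2 null libraries each, from the same 4 embryos, so values of these 3 tissues share embryos. Replicate 1 of these tissues came from 1 pair of embryos and replicate 2 from the other. Carcass is what was left of the embryo after dissection of the other tissues. The second null liver library, which the study set aside, listed 228 peaks in all and none in the 34 windows; it was left out, so 19 libraries were used.

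The files list where peaks start and end, with no height and no number of reads, so sequencing depth is unknown and a share of bases under peaks is the only level available. The 19 libraries covered between 0.0349% and 8.09% of the ungapped genome. Null libraries listed 101344 to 254319 peaks and WT libraries 1563 to 42013. The 2 null hearts differed from each other, with 254319 and 126531 peaks. Peak positions show no expression, so the tissue labels could not be checked against marker genes, and the peaks over *Tdg* itself cannot show its deletion. In a whole tissue, more cells of a marked type and more mark per cell cannot be told apart.

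BMP and TGF-beta ligands bind paired type I and type II serine/threonine kinase receptors, which phosphorylate receptor SMADs. SMAD1, SMAD5 and SMAD9 act downstream of BMP receptors, SMAD2 and SMAD3 downstream of TGF-beta and activin receptors, and both groups bind the common partner SMAD4 and enter the nucleus. SMAD6 and SMAD7 are inhibitory SMADs, themselves induced by the pathway. Noggin, chordin and gremlin bind BMP ligands outside the cell. In the embryo the pathway is known for patterning the dorsal neural tube and for forming the heart chambers, valves and trabeculae.

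Of the 34 windows, 18 held at least 1 stretch under peaks of all 9 usable null libraries, in 31 stretches of 22.1 kb together. No such count over all genes is given here, so it marks nothing particular to the listed genes. The stretch found in the most libraries lay in an intron of *Smad3*, which encodes a receptor SMAD of the TGF-beta branch. Its 600 bp were under peaks of all 9 null and of 7 of the 10 WT libraries, with the exceptions WT hindbrain 1 and 4 and WT heart 1. An intron of *Acvr2b*, an activin type II receptor, held 600 bp under peaks of 9 null and 4 WT libraries, and the region 4446 bp upstream of the start of *Bmp10*, a ligand of the embryonic heart, held 500 bp under peaks of 9 null and 3 WT libraries. When the stretch shared by the most libraries was taken for each gene, these 3 had peaks of the most WT libraries among those under peaks of all 9 null libraries, and are shown for that reason. Each sequence is the central 300 bases on the + strand of NCBIM37, outside exons, at chr9:63550351-63550650 for *Smad3*, chr9:119327351-119327650 for *Acvr2b* and chr6:87374401-87374700 for *Bmp10*. Capitals mark CpG sites, the main context of 5fC in mammals. The 3 sequences held 14, 10 and 8 CpG sites.
Smad3 intron: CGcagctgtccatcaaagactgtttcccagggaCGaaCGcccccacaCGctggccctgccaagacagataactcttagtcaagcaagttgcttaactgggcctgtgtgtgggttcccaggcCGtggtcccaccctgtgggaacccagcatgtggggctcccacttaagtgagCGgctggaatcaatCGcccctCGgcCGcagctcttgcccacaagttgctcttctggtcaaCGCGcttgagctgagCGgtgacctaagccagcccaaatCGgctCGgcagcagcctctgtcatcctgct
Acvr2b intron: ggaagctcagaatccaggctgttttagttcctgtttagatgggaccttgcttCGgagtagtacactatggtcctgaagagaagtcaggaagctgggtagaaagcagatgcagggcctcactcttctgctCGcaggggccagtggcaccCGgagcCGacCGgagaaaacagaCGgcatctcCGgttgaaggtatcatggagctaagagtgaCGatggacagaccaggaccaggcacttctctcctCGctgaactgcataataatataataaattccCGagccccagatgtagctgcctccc
Bmp10 upstream: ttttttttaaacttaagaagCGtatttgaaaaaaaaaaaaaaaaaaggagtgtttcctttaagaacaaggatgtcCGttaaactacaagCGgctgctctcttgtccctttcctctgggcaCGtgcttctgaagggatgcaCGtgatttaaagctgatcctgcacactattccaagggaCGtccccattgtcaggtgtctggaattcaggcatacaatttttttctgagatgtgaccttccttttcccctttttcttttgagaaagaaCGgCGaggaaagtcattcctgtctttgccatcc

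Other stretches lay under peaks in a single null tissue. Under peaks of both null hearts and of no other null library were 232 stretches in 29 of the 34 windows, 105.6 kb together. For carcass, also with 2 libraries, there were 139 stretches in 24 windows, 44.9 kb together. For hindbrain, where all 4 libraries had to hold the peak, there were 4 stretches in 4 windows, 1.4 kb together. These numbers depend on how many libraries had to agree and on how much each library covered, so the tissues are not compared by them. They also have no count over all genes beside them, and the listed windows are longer than most. They thus mark nothing particular to the listed genes. The examples printed are 1600 bp in an intron of *Smad6*, an inhibitory SMAD, 1200 bp in an intron of *Bmp7*, a BMP ligand, and 500 bp centred 2225 bp upstream of *Inhbb*, which encodes the activin beta-B subunit. The first 2 were under peaks of the null hearts only and the third of the 4 null hindbrains only, and no WT library had a peak at any of the 3. Their central 300 bases on the + strand, again with CpG in capitals, are chr9:63816851-63817150, chr2:172700851-172701150 and chr1:121320901-121321200. They held 3, 6 and 3 CpG sites.
Smad6 intron, null heart: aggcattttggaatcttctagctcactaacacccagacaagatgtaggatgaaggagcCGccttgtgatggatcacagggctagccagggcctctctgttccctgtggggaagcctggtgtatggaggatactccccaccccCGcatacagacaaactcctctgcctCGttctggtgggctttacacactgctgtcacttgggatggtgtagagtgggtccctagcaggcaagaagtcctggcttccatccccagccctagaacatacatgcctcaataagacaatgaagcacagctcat
Bmp7 intron, null heart: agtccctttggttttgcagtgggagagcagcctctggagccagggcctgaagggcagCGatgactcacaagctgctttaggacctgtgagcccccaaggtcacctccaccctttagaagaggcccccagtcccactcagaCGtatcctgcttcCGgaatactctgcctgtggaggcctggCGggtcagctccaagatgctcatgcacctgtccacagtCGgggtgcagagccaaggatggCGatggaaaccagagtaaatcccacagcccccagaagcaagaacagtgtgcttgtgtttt
Inhbb upstream, null hindbrain: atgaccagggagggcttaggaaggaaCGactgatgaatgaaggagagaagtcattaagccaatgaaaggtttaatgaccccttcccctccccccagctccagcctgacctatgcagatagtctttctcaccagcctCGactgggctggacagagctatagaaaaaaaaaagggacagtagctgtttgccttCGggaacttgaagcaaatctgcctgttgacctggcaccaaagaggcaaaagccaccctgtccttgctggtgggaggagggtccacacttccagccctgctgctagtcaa

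Across the 34 windows together, CpG sites were denser under peaks than outside them in each of the 9 null libraries. The density was 15.2 to 18.1 CpG per kb under peaks and 11 to 11.9 per kb outside, a ratio of 1.33 to 1.53. The lowest ratios, 1.34 and 1.33, were those of the 2 carcass libraries.

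The share of the 34 windows under peaks was higher in null than in WT libraries of every tissue. It was 7.82%, 5.44%, 7.70% and 6.96% in the 4 null hindbrains and 0.0306%, 0.283%, 0.786% and 0.0268% in the 4 WT hindbrains. In heart it was 26.4% and 14.3% in null and 0.157% and 0.390% in WT embryos, and in carcass 12.9% and 19.8% against 2.15% and 1.86%. The null liver library had 9.80% and the 2 WT livers 0.707% and 0.115%. No null value overlapped a WT value in any tissue. WT carcass stood above the other WT tissues, and among WT hindbrains those of litters O and Q stood above A and Z.

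**Figure D1:**
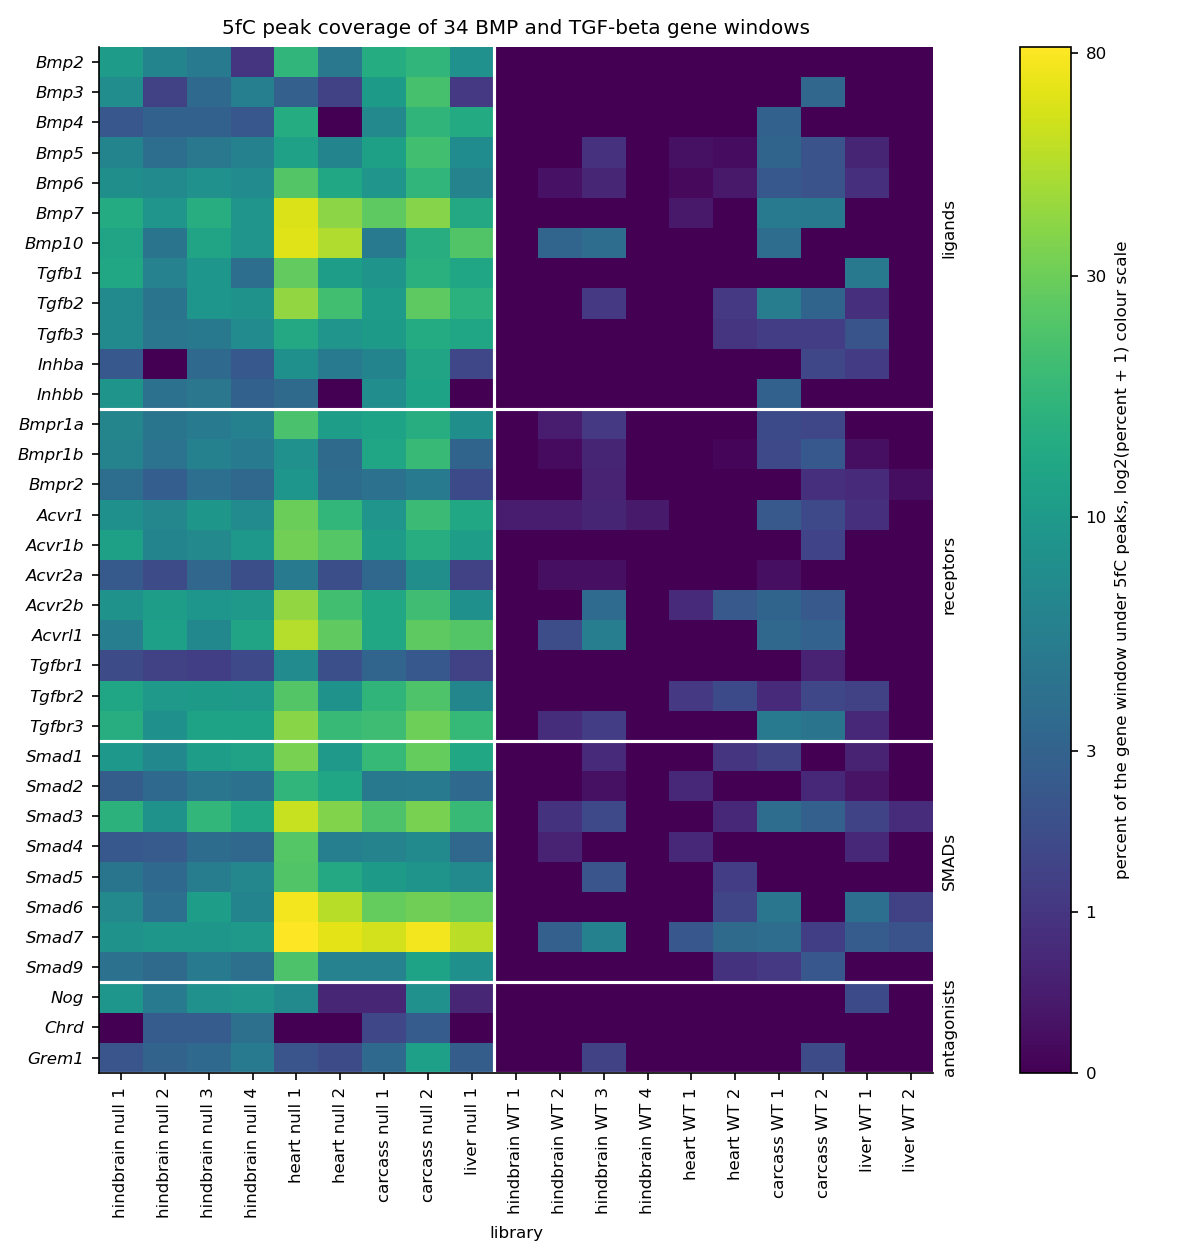
Percent of each gene window under 5fC peaks, coloured on a log2(percent + 1) scale, for the 34 genes (rows, by role) in 9 null and 10 WT libraries (columns). *Smad7*, *Smad6*, *Bmp7* and *Bmp10* are the brightest rows in null heart, and most WT cells are at 0.

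Set against the genome as a whole, the windows were covered more densely than an equal share in all 9 null libraries. The ratio of the covered share of the windows to that of the ungapped genome was 1.90 to 2.19 in null hindbrain, 2.39 and 2.62 in null carcass, 3.27 and 3.94 in null heart and 3.23 in null liver. Against the windows of all protein-coding genes, it was 1.52 to 1.71, 1.89 and 2.09, 2.24 and 2.53, and 2.35. In WT hindbrain the ratio to the genome was 0.800, 1.60, 1.68 and 0.766, with 1 peak in the windows in each of the first and last of these libraries. WT carcass gave 2.29 and 2.32, WT heart 1.18 and 3.24 and WT liver 2.22 and 3.04, so some WT values reached those of null libraries of another tissue. Within each tissue every WT ratio to the genome lay below every null one, narrowly in carcass, heart and liver. Against the windows of all protein-coding genes this order held in hindbrain only. On that scale WT carcass gave 2.06 and 2.10, WT heart 1.29 and 2.80 and WT liver 1.74 and 2.57. These ratios were not tested.

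**Figure D2:**
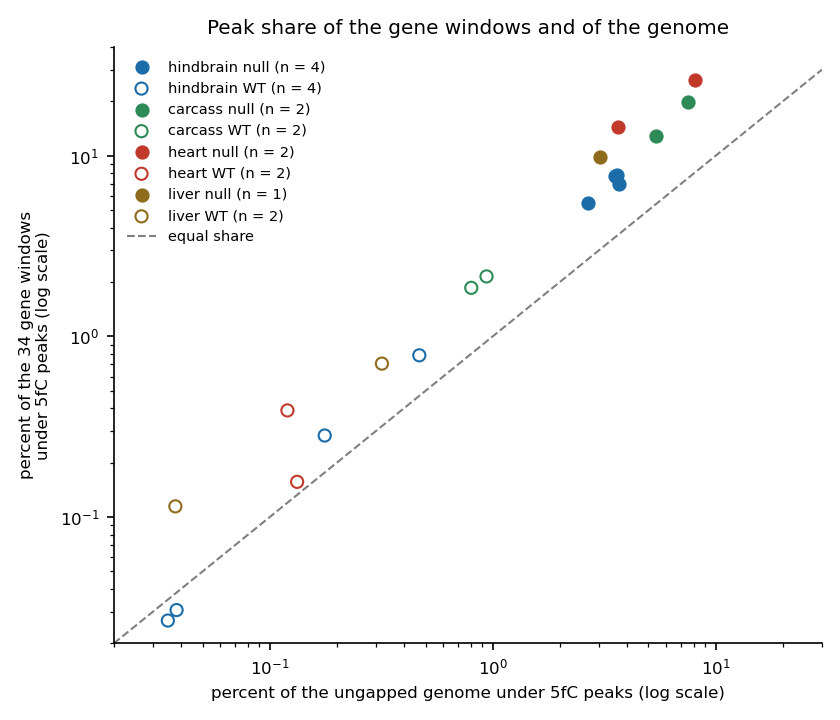
Percent of the 34 gene windows under peaks (vertical, log scale) against percent of the ungapped genome under peaks (horizontal, log scale); 1 point is 1 library and the dashed line marks equal shares. All 9 null libraries lie above the line, with null heart at 3.27 and 3.94 times its genome share, and the 2 WT hindbrains of litters A and Z lie below it.

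Taken as 1 pool of bases, SMAD windows were the most covered role in every null tissue, at 7.61% ± 1.64 (SD, n = 4) in hindbrain, 33.8% ± 12.6 (SD, n = 2) in heart, 21.1% ± 3.95 (SD, n = 2) in carcass and 15.6% in the liver library. Ligand windows had 7.02% ± 1.31, 20.6% ± 8.69, 16.6% ± 6.67 and 9.33%, and receptor windows 6.81% ± 0.919, 15.4% ± 7.04, 14.6% ± 4.46 and 7.92%, in the same order of tissues. The 3 antagonists had the least, at 4.09% ± 1.22, 1.72% ± 1.19, 4.82% ± 3.73 and 1.25%. Relative to the genome share of each library, SMAD windows reached 5.28 and 6.83 times in null heart, while antagonist windows stood at 0.316 and 0.242 times. In hindbrain the SMAD, ligand and receptor ranges overlapped, at 2.03 to 2.67, 1.82 to 2.32 and 1.84 to 2.17 times. The SMAD pool was uneven. In null heart the means of *Smad7*, *Smad6*, *Smad3* and *Smad1*, at 75.1%, 63.8%, 46.1% and 21.7%, lay above the pooled ligands, and those of *Smad2*, *Smad4*, *Smad5* and *Smad9* lay below, at 14.7% to 18.8%. In null hindbrain *Smad3*, *Smad1* and *Smad7* lay above the pooled ligands, at 13.9%, 9.74% and 9.29%, and the other 5 SMADs below, at 3.04% to 7.001%. Levels of roles were not tested against each other.

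The first comparison asked, gene by gene, how far loss of TDG changed peak coverage in each tissue. In hindbrain all 34 genes rose in null embryos, in heart 30 of the 32 genes tested and in carcass 26 of 34, and no listed gene fell. The rise was as general over the genome, with 96.6%, 81.2% and 78.2% of all genes tested called in hindbrain, heart and carcass, of which 13402 of 13411, 12749 of 12788 and 11284 of 11393 were higher. The counts thus mark nothing particular to the listed genes. In heart *Bmp4* and *Nog* fell short of the threshold and *Chrd* and *Inhbb* were under the filter. In carcass the 8 genes not called were *Bmp3*, *Bmp4*, *Bmp10*, *Tgfb2*, *Smad6*, *Nog*, *Grem1* and *Inhbb*. Log2(covered bases + 500) was compared by limma over all genes with a mean of at least 200 covered bases, and a gene was called at an adjusted p under 0.05. A gene passes this filter mostly through its null libraries, so the share of tested genes that rose supports nothing by itself.

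The median difference over the tested listed genes was 2.44 on the log2 scale in hindbrain, 3.95 in heart and 2.53 in carcass, beside 1.92, 2.50 and 1.92 over all genes. These sizes depend on the 500 bases added, since many WT libraries are at 0: with 100 bases the hindbrain median was 4.33, beside 3.70 over all genes, and with 2000 bases 1.09, beside 0.80. For the same reason they can grow with window length, and the listed windows had a median of 63.4 kb against 25.4 kb. The part of length in these medians was not tested. The smallest hindbrain differences were those of *Chrd* (limma adjusted p = 0.0149) and *Bmp4* (limma adjusted p = 2.44e-05), both listed at 0 in the 4 WT hindbrains. *Bmp4*, a ligand of the dorsal neural tube, was covered at 2.33%, 2.92%, 2.92% and 2.33% in the 4 null hindbrains. P-values measure the spread between these embryos, with 2 per genotype in heart and carcass. When coverage was instead set against each library's own share of the genome, 15 listed genes were higher and 1 lower in null hindbrain, 10 higher and 1 lower in null heart, and 5 higher in null carcass, beside 46.9%, 38.7% and 18.3% of all genes called on that scale. In heart 13 listed genes were called without null replicate 1 and 18 without null replicate 2, beside 76.5% and 81.4% of all genes. In carcass 14 and 10 were called without null replicates 1 and 2 and 11 without WT replicate 1, beside 62.04%, 55.8% and 38.6%. Without WT replicate 2, limma called 0 of the listed genes and 0 of all genes in carcass, while 21 listed genes had an unadjusted p under 0.05. Each of these fits has 1 library in an arm and takes its spread from the 2 libraries of the other genotype alone, so the drop in calls shows little about stability.

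WT peaks in the 34 windows were few. Of the 34 genes, 1, 11, 18 and 1 had peak bases in WT hindbrains 1 to 4, beside 3.08%, 13.4%, 23.2% and 3.09% of all genes. In WT heart 8 and 13 genes had peak bases, beside 10.2% and 10.3% of all genes. In WT carcass they were 21 and 22, beside 33.8% and 30.2%, and in WT liver 18 and 4, beside 25.9% and 4.35%. Listed windows are longer than most, and the part of length in these numbers was not tested. *Bmp2* and *Chrd* had no peak in any of the 10 WT libraries. There were 10 genes that had peak bases in at least 5 of them, led by *Smad7* in 8 and by *Bmp6*, *Acvr1* and *Smad3* in 7 each.

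*Acvr1*, a type I receptor for BMPs and activins, was the 1 listed gene with peak bases in all 4 WT hindbrains, at 0.424%, 0.424%, 0.584% and 0.371% of its window. Of 275 WT peaks that touched the 34 windows in pairs with a usable null library, 188 overlapped a peak of the null library of the same tissue and replicate number, which is 68.4%, beside 60.5% of all WT peaks. The 9 pairs varied. In heart it was 8 of 9 peaks in replicate 1 (88.9%, 95% exact interval 51.8 to 99.7%), beside 37.7% of all peaks, and 9 of 18 in replicate 2 (50%, 26.02 to 73.98%), beside 34.7%. In carcass it was 52 of 85 in replicate 1 (61.2%, 49.99 to 71.6%), beside 55.6%, and 64 of 76 in replicate 2 (84.2%, 74.04 to 91.6%), beside 72.4%. In liver it was 14 of 32 (43.8%, 26.4 to 62.3%), beside 30.1%. In hindbrain it was 30 of 38 in litter Q (78.9%, 62.7 to 90.4%), beside 76.5%, and 10 of 15 in litter O (66.7%, 38.4 to 88.2%), beside 82.4%. Litters A and Z had 1 peak each in the windows, which was overlapped in Z and not in A. The share of all peaks lay below the interval in heart replicate 1 and carcass replicate 2 and inside it in the other 5 pairs with more than 1 peak. Intervals cover counting error only. Null libraries covered the listed windows more densely than the genome, with 26.4% against 8.09% in null heart 1. The part of this in the overlap was not tested.

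The second comparison set null tissues against each other. Null hindbrains came from other embryos and litters than the null hearts and carcasses. In the contrasts with hindbrain, tissue and litter thus cannot be told apart. Null heart differed from null hindbrain in 21 of the 34 genes, 16 higher and 5 lower in heart, beside 38.7% of all genes, 4075 higher and 2427 lower. *Smad6*, *Smad7*, *Bmp10* and *Bmp7* had the largest differences towards heart, and *Chrd*, *Inhbb*, *Bmp3*, *Nog* and *Bmpr1b* were the 5 lower genes. Null carcass differed from null hindbrain in 2 genes, *Smad7* and *Smad6*, both higher in carcass, beside 11.5% of all genes, 410 higher and 1523 lower. In this contrast 8 of the 34 listed genes had an unadjusted p under 0.05, beside 5256 of all 16804 genes tested. Null heart differed from null carcass in 16 genes, 13 higher and 3 lower in heart, beside 38.4% of all genes, 4856 higher and 1600 lower. Of these 16 calls, 9 were lost with log2 values centred on the median of all genes and 13 without scaling between libraries. After centring, more listed genes were called lower than higher in heart. The median difference of the listed genes was 0.54, 0.16 and 0.49 in these contrasts, beside 0.20, -0.23 and 0.42 over all genes. Since null libraries covered unequal shares of the genome, covered bases were divided by the bases expected from the library's own share, as log2((covered + 500)/(expected + 500)), and the 8 null hindbrain, heart and carcass libraries were fitted together by limma. The 3 contrasts share libraries and are given side by side, and differences between tissues below are on this relative scale. The part of the longer listed windows in these counts and medians was not tested.

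**Figure D3:**
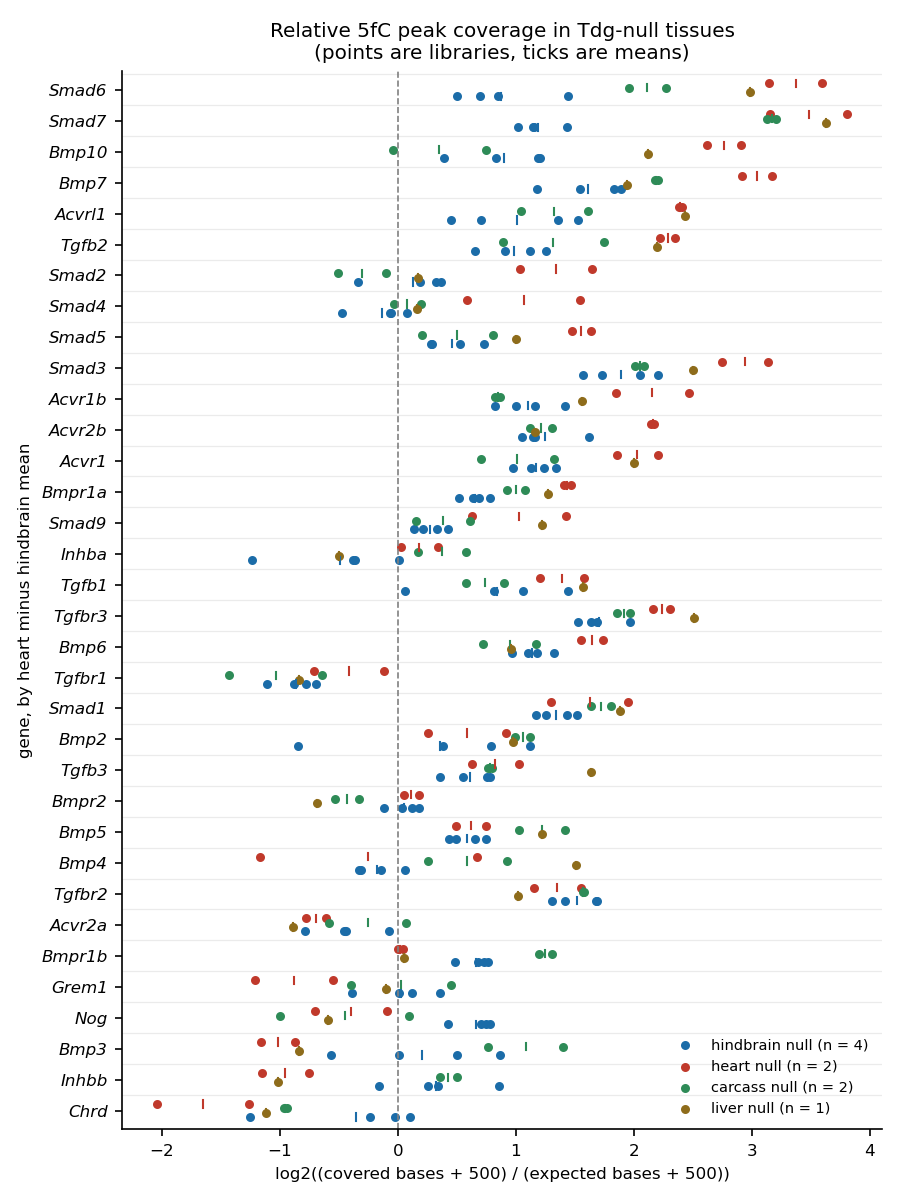
Relative coverage, log2((covered bases + 500)/(expected bases + 500)), of the 34 gene windows in null libraries, ordered by the heart minus hindbrain difference; points are libraries, ticks are means and 0 is the library's genome share. *Smad6*, *Smad7*, *Bmp10* and *Bmp7* lie furthest to the heart side, and *Inhbb* and *Chrd* furthest to the hindbrain side.

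The inhibitory SMADs showed the largest heart against hindbrain differences of the 34 genes. *Smad7*, which targets activated TGF-beta and BMP receptors, lies at chr18:75527183-75555589. In null hindbrain 8.64%, 9.42%, 9.42% and 9.68% of the *Smad7* window lay under peaks, in null heart 82.3% and 68%, in null carcass 60.4% and 76.3% and in the null liver library 52.1%. Both hearts, both carcasses and the liver stood above all 4 hindbrains, which lay close together. The relative difference was 2.29 ± 0.18 (SE, limma adjusted p = 0.000371) for heart against hindbrain and 1.98 ± 0.18 (SE, limma adjusted p = 0.00222) for carcass against hindbrain. Between heart and carcass it was 0.31 ± 0.21 (SE, limma adjusted p = 0.259), short of the threshold. Among 16804 genes tested, *Smad7* ranked 135 from the top for heart and 27 from the top for carcass. WT coverage of its window was 0%, 2.86%, 5.99% and 0% in WT hindbrain, 2.34% and 3.62% in WT heart, 3.88% and 1.27% in WT carcass and 2.60% and 2.08% in WT liver. A stretch of 700 bp upstream of the gene was under peaks of 8 null and 5 WT libraries.

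*Smad6*, which inhibits mainly the BMP branch, lies at chr9:63800953-63869866. In null hindbrain 6.97%, 4.06%, 10.6% and 6.34% of the *Smad6* window lay under peaks, in null heart 76.4% and 51.1%, in null carcass 28.4% and 31.2% and in the null liver library 28.3%. Heart stood above carcass and liver, and these above the hindbrains, with no overlap. The difference was 2.50 ± 0.25 (SE, limma adjusted p = 0.000394) for heart against hindbrain, 1.24 ± 0.25 (SE, limma adjusted p = 0.0160) for carcass against hindbrain and 1.26 ± 0.29 (SE, limma adjusted p = 0.00810) for heart against carcass. It ranked 78 of 16804 genes from the top in the first of these. Its WT values were 0% in all 4 WT hindbrain libraries, 0% and 1.52% in WT heart, 4.69% and 0% in WT carcass and 4.06% and 1.39% in WT liver. Null heart, carcass and liver peaks were frequent downstream of the middle of the gene, where null hindbrain 3 had 3 peaks, null hindbrain 4 had 1 and null hindbrains 1 and 2 had none. The longest stretch under peaks of all null hearts, carcasses and liver but of no null hindbrain was 1900 bp in an intron of *Smad6* and 2500 bp in *Smad7*, where it spans 2 exons and the introns beside them.

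**Figure D4:**
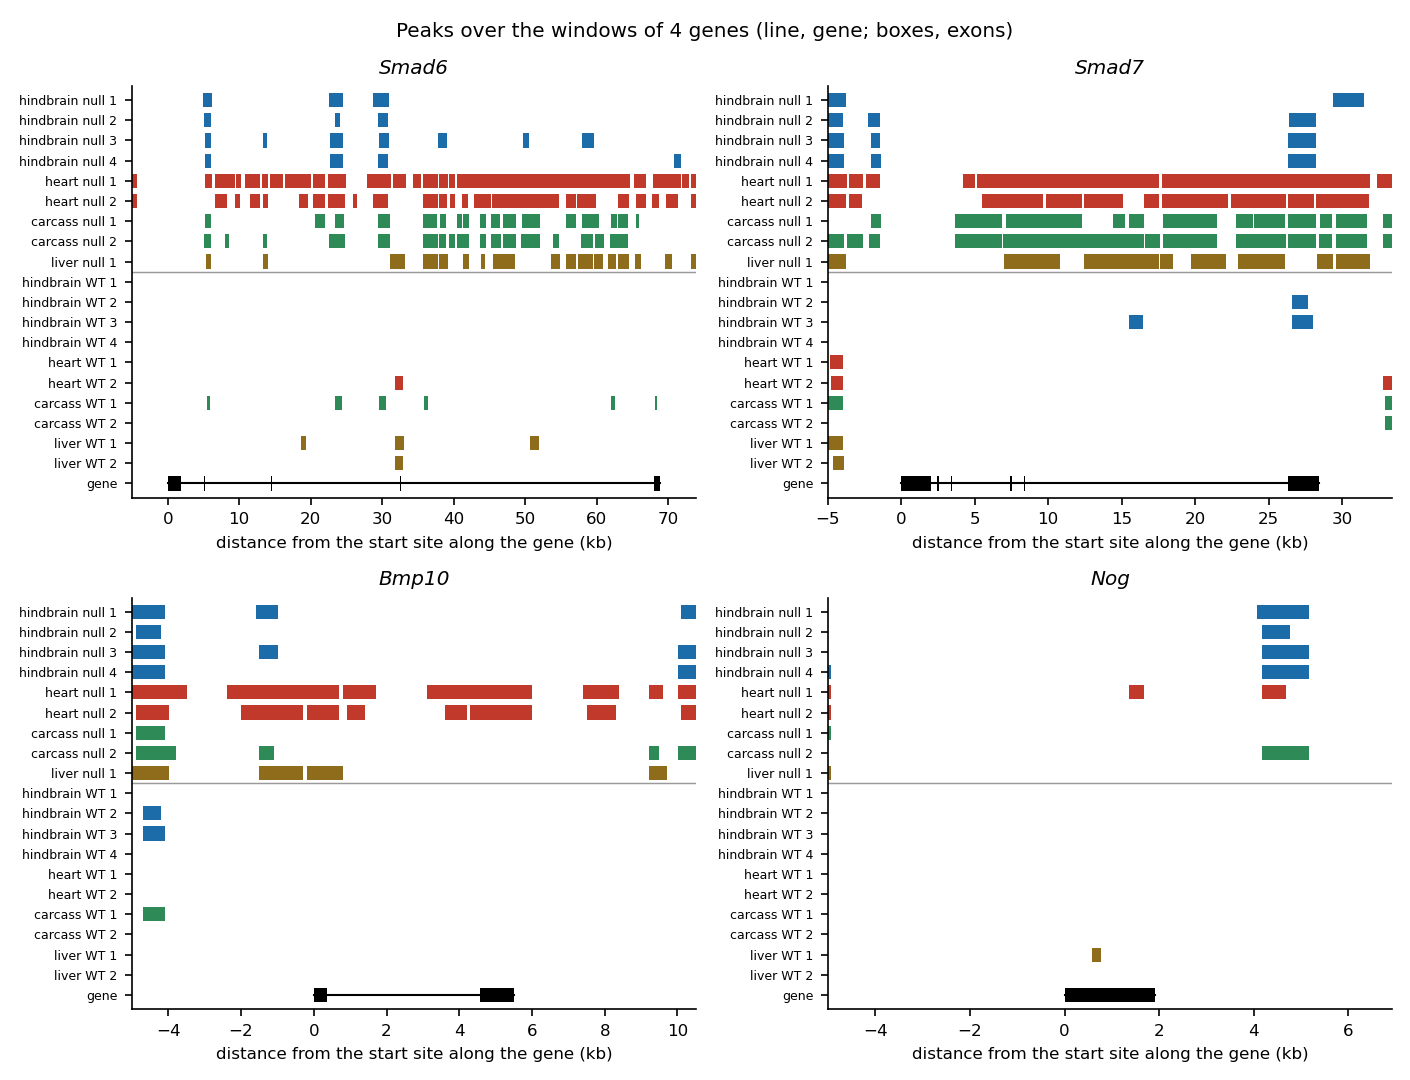
Peaks of the 19 libraries (rows; null above the grey line, WT below) along the windows of *Smad6*, *Smad7*, *Bmp10* and *Nog*, by distance in kb from the start site, coloured by tissue, with the gene as a line and exons as boxes. Null heart peaks run over most of the *Smad6* and *Smad7* bodies. All 4 null hindbrains have a *Nog* peak beyond the end of the gene, as do null heart 1 and null carcass 2. At the upstream edge of the *Nog* window, null hindbrain 4, both null hearts, null carcass 1 and the null liver have a peak.

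Of the receptor SMADs, *Smad3* (chr9:63494574-63605801) had the widest coverage. In null hindbrain 16.2%, 8.74%, 17.7% and 13.1% of the *Smad3* window lay under peaks, in null heart 56.8% and 35.3%, in null carcass 23.01% and 33.4% and in the null liver library 19.1%. Heart exceeded hindbrain by 1.06 ± 0.19 (SE, limma adjusted p = 0.00266) and carcass by 0.90 ± 0.22 (SE, limma adjusted p = 0.0105). WT coverage was 0%, 0.907%, 1.65% and 0% in WT hindbrain, 0% and 0.660% in WT heart, 3.88% and 2.89% in WT carcass and 1.48% and 0.742% in WT liver. *Smad5* (chr13:56804371-56843738), of the BMP branch, reached 24.2% and 13.4% in null heart against 4.59%, 3.50%, 5.53% and 6.75% in null hindbrain, 10.2% and 8.85% in null carcass and 7.09% in null liver. Both hearts were above every other null library. Its heart difference was 1.10 ± 0.24 (SE, limma adjusted p = 0.00614) against hindbrain and 1.05 ± 0.27 (SE, limma adjusted p = 0.0143) against carcass. *Smad5* had WT peaks in 2 libraries, with 0%, 0%, 2.23% and 0% in WT hindbrain, 0% and 1.22% in WT heart, 0% in both WT carcass libraries and 0% in both WT liver libraries.

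*Smad2* (chr18:76401234-76465385), of the TGF-beta branch, was covered at 2.70%, 3.51%, 4.72% and 4.27% in null hindbrain, 17.3% and 12.8% in null heart, 4.99% and 5.12% in null carcass and 3.51% in the null liver library. Here too the 2 hearts stood apart from all other null libraries, by 1.21 ± 0.29 (SE, limma adjusted p = 0.00955) against hindbrain and 1.64 ± 0.33 (SE, limma adjusted p = 0.00475) against carcass. WT coverage of *Smad2* was 0%, 0%, 0.225% and 0% in WT hindbrain, 0.674% and 0% in WT heart, 0% and 0.674% in WT carcass and 0.270% and 0% in WT liver. *Smad1* (chr8:81862294-81923417), of the BMP branch, was covered at 9.56%, 6.89%, 10.7% and 11.8% in null hindbrain, 33.3% and 9.98% in null heart, 18.3% and 28.1% in null carcass and 13.1% in the null liver library. It was called in none of the 3 contrasts, and its heart against hindbrain difference was 0.28 ± 0.20 (SE, limma adjusted p = 0.288). In WT libraries *Smad1* had 0%, 0%, 0.703% and 0% in WT hindbrain, 0% and 0.984% in WT heart, 1.41% and 0% in WT carcass and 0.562% and 0% in WT liver. *Smad4* (chr18:73798663-73863434), the common partner, and *Smad9* (chr3:54559504-54605179) were called higher in heart than in hindbrain, at 1.20 ± 0.30 (SE, limma adjusted p = 0.0119) and 0.75 ± 0.27 (SE, limma adjusted p = 0.0484). Their 2 hearts differed widely, with 24.9% and 5.80% for *Smad4* and 23.3% and 6.11% for *Smad9*. *Smad4* was also called higher in heart than in carcass, at 0.98 ± 0.35 (SE, limma adjusted p = 0.0472). The *Smad9* call was lost in 15 of 18 alternative settings, and the *Smad4* call against carcass in 13 of 19.

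Among the ligands, *Bmp10* (chr6:87378996-87384506), which is known for supporting growth of the embryonic heart wall, differed most between heart and carcass. In null hindbrain 12.3%, 4.51%, 12.3% and 9.06% of the *Bmp10* window lay under peaks, in null heart 66.5% and 48.4%, in null carcass 5.16% and 14.8% and in the null liver library 23.9%. Heart stood above liver and liver above hindbrain, while 1 carcass lay in the hindbrain range and the other above it. The differences were 1.86 ± 0.28 (SE, limma adjusted p = 0.00137) for heart against hindbrain and 2.41 ± 0.33 (SE, limma adjusted p = 0.00104) for heart against carcass. Carcass against hindbrain gave -0.55 ± 0.28 (SE, limma adjusted p = 0.213). Peaks of both null hearts lay over the start site of the gene, as did a peak of the null liver library, and no null hindbrain or carcass had a peak there. WT coverage was 0%, 3.22%, 3.87% and 0% in WT hindbrain, 0% in both WT heart libraries, 3.87% and 0% in WT carcass and 0% in both WT liver libraries.

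*Bmp7* (chr2:172693513-172765822), a ligand with broad roles in organ formation, followed. In null hindbrain 14.3%, 8.98%, 14.7% and 9.10% of the *Bmp7* window lay under peaks, in null heart 65.01% and 37.7%, in null carcass 26.96% and 36.4% and in the null liver library 13.3%. Its heart values exceeded the hindbrain values by 1.43 ± 0.19 (SE, limma adjusted p = 0.000892) and the carcass values by 0.85 ± 0.22 (SE, limma adjusted p = 0.0143). The second heart, at 37.7%, lay close to the second carcass on the raw scale, and without scaling between libraries the call against carcass was lost. WT coverage was 0% in all 4 WT hindbrain libraries, 0.364% and 0% in WT heart, 5.09% and 4.97% in WT carcass and 0% in both WT liver libraries.

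*Tgfb2* (chr1:188447065-188529871), a TGF-beta ligand of the heart cushions, was covered at 7.22%, 4.53%, 9.16% and 8.62% in null hindbrain, 39.8% and 20.8% in null heart, 10.5% and 26.6% in null carcass and 15.8% in the null liver library. Heart differed from hindbrain by 1.30 ± 0.25 (SE, limma adjusted p = 0.00374) and from carcass by 0.97 ± 0.29 (SE, limma adjusted p = 0.0253). Its WT values were 0%, 0%, 1.08% and 0% in WT hindbrain, 0% and 1.08% in WT heart, 5.50% and 3.12% in WT carcass and 0.862% and 0% in WT liver. *Tgfb1* and *Tgfb3* were called in none of the 3 contrasts, with heart against hindbrain at 0.55 ± 0.33 (SE, limma adjusted p = 0.216) and 0.21 ± 0.22 (SE, limma adjusted p = 0.455). *Bmp6* (chr13:38436995-38592183) was covered at 8.05%, 7.14%, 8.35% and 7.45% in null hindbrain, 24.3% and 12.9% in null heart, 9.08% and 17.4% in null carcass and 6.17% in the null liver library, and was called against carcass, at 0.70 ± 0.22 (SE, limma adjusted p = 0.0321), a call lost in 9 of 19 alternative settings. Its WT coverage was 0%, 0.242%, 0.605% and 0% in WT hindbrain, 0.121% and 0.363% in WT heart, 2.36% and 2.12% in WT carcass and 0.848% and 0% in WT liver.

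Some ligands went the other way. *Bmp3* (chr5:99283458-99309979), an unusual BMP that opposes other BMPs, was covered at 7.67%, 1.37%, 3.56% and 5.75% in null hindbrain, 2.86% and 1.37% in null heart, 10.1% and 22.2% in null carcass and 1.10% in the null liver library. The hearts overlapped the hindbrains in raw coverage and lay below both carcasses. *Bmp3* had WT peaks in 1 library, with 0% in all 4 WT hindbrain libraries, 0% in both WT heart libraries, 0% and 3.29% in WT carcass and 0% in both WT liver libraries. The relative difference was -2.10 ± 0.44 (SE, limma adjusted p = 0.00550) for heart against carcass and -1.22 ± 0.38 (SE, limma adjusted p = 0.0298) for heart against hindbrain, a call lost in 8 of 18 alternative settings. *Inhbb* (chr1:121312042-121318825) was covered at 8.94%, 4.17%, 4.77% and 2.98% in null hindbrain, 3.57% and 0% in null heart and 7.75% and 11.9% in null carcass, and was listed at 0 in liver. Its fitted heart difference was -1.28 ± 0.30 (SE, limma adjusted p = 0.00904) against hindbrain and -1.38 ± 0.35 (SE, limma adjusted p = 0.0122) against carcass, and since 1 heart library is at 0 its size depends on the pseudocount. Over the alternative settings the difference from hindbrain ran from -2.41 to -0.11. The first heart, at 3.57%, lay in the hindbrain range of raw coverage. WT coverage of *Inhbb* was 0% in all 4 WT hindbrain libraries, 0% in both WT heart libraries, 2.98% and 0% in WT carcass and 0% in both WT liver libraries. *Bmp5* (chr9:75623171-75748117) was called in none of the contrasts, at 6.30%, 3.93%, 4.89% and 6.002% in null hindbrain, 11.6% and 6.37% in null heart, 11.3% and 20.8% in null carcass and 7.56% in the null liver library. It had WT peaks in 6 libraries, at 0%, 0%, 0.889% and 0% in WT hindbrain, 0.222% and 0.148% in WT heart, 3.19% and 2.07% in WT carcass and 0.593% and 0% in WT liver. The other ligands, *Bmp2*, *Bmp4* and *Inhba*, were called in none of the 3 contrasts either. Their null coverage ran from 0 in the second null heart for *Bmp4* and in null hindbrain 2 for *Inhba* to 17.5% for *Bmp2* in a carcass and a heart.

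Of the 11 receptors, 6 were called higher in null heart than in null hindbrain, beside 4075 of all 16804 genes tested. *Acvrl1* (chr15:100958953-100975767), a type I receptor of blood vessels that binds BMP10, was covered at 5.59%, 11.2%, 6.89% and 12.3% in null hindbrain, 50.03% and 27.3% in null heart, 13.1% and 26.9% in null carcass and 24.6% in the null liver library. Both hearts lay above the hindbrains, and the second carcass and the liver lay just under the second heart. The difference was 1.39 ± 0.30 (SE, limma adjusted p = 0.00616) against hindbrain and 1.07 ± 0.35 (SE, limma adjusted p = 0.0346) against carcass, the latter call lost in 8 of 19 alternative settings. Its WT coverage was 0%, 1.86%, 5.59% and 0% in WT hindbrain, 0% in both WT heart libraries, 3.36% and 2.98% in WT carcass and 0% in both WT liver libraries. *Acvr2b* (chr9:119311562-119342619) was covered at 8.77%, 10.7%, 9.26% and 9.74% in null hindbrain, 39.9% and 20.7% in null heart, 13.2% and 20.5% in null carcass and 8.28% in the null liver library, with heart higher by 0.91 ± 0.19 (SE, limma adjusted p = 0.00474) than hindbrain and by 0.95 ± 0.22 (SE, limma adjusted p = 0.00788) than carcass. WT coverage of *Acvr2b* was 0%, 0%, 3.65% and 0% in WT hindbrain, 0.731% and 2.44% in WT heart, 3.17% and 2.44% in WT carcass and 0% in both WT liver libraries.

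*Acvr1b* (chr15:101004556-101043032), an activin type I receptor, was covered at 11.3%, 6.39%, 7.01% and 9.49% in null hindbrain, 31.8% and 24.8% in null heart, 10.3% and 14.6% in null carcass and 10.9% in the null liver library. Both hearts were above all other null libraries, by 1.05 ± 0.22 (SE, limma adjusted p = 0.00573) against hindbrain and 1.31 ± 0.26 (SE, limma adjusted p = 0.00420) against carcass. The 1 WT library with peaks at *Acvr1b* was a carcass, with 0% in all 4 WT hindbrain libraries, 0% in both WT heart libraries, 0% and 1.44% in WT carcass and 0% in both WT liver libraries. *Acvr1* (chr2:58241055-58419568) was covered at 8.17%, 6.68%, 9.34% and 7.48% in null hindbrain, 29.97% and 17.7% in null heart, 8.96% and 19.3% in null carcass and 12.9% in the null liver library, with heart higher by 0.86 ± 0.21 (SE, limma adjusted p = 0.0111) than hindbrain and by 1.02 ± 0.25 (SE, limma adjusted p = 0.0101) than carcass. Its WT values outside hindbrain were 0% and 0% in heart, 2.44% and 1.64% in carcass and 0.849% and 0% in liver. *Bmpr1a* (chr14:35223920-35316527), a BMP type I receptor, was covered at 6.53%, 4.61%, 5.26% and 5.97% in null hindbrain, 22.2% and 10.9% in null heart, 11.9% and 14.7% in null carcass and 7.99% in the null liver library, and differed between heart and hindbrain by 0.78 ± 0.18 (SE, limma adjusted p = 0.00776). WT coverage of *Bmpr1a* was 0%, 0.390%, 1.07% and 0% in WT hindbrain, 0% in both WT heart libraries, 1.68% and 1.59% in WT carcass and 0% in both WT liver libraries. *Tgfbr3* (chr5:107535589-107718648), the co-receptor betaglycan, had 14.8%, 8.19%, 11.9% and 11.97% in null hindbrain, 37.1% and 19.1% in null heart, 20.2% and 30.4% in null carcass and 18.4% in the null liver library, with a smaller heart against hindbrain difference of 0.53 ± 0.15 (SE, limma adjusted p = 0.0207). WT coverage of *Tgfbr3* was 0%, 0.777%, 1.24% and 0% in WT hindbrain, 0% in both WT heart libraries, 5.23% and 4.51% in WT carcass and 0.673% and 0% in WT liver.

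*Bmpr1b* (chr3:141500100-141832389), another BMP type I receptor and the longest window, had the opposite order. In null hindbrain 6.22%, 4.38%, 5.93% and 5.20% of the *Bmpr1b* window lay under peaks, in null heart 8.33% and 3.65%, in null carcass 12.5% and 18.9% and in the null liver library 3.16%. Carcass was above all other null libraries. The relative difference was -1.23 ± 0.22 (SE, limma adjusted p = 0.00301) for heart against carcass and -0.64 ± 0.19 (SE, limma adjusted p = 0.0253) for heart against hindbrain, where the sign turned to 0.04 in covered bases that were not scaled between libraries. WT coverage was 0%, 0.146%, 0.584% and 0% in WT hindbrain, 0% and 0.0584% in WT heart, 1.67% and 2.40% in WT carcass and 0.205% and 0% in WT liver. *Tgfbr2* (chr9:115993415-116084383), the TGF-beta type II receptor, was called in none of the contrasts. Its null values were 12.6%, 9.71%, 10.2% and 9.80% in hindbrain, 24.7% and 8.72% in heart, 16.9% and 23.5% in carcass and 6.64% in liver, and its WT values 0% in all 4 WT hindbrain libraries, 1.09% and 1.68% in WT heart, 0.693% and 1.58% in WT carcass and 1.39% and 0% in WT liver. *Bmpr2*, *Acvr2a* and *Tgfbr1* were not called either and were thinly covered, at 1.26% to 9.21% of their windows in null libraries.

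Of the 3 secreted antagonists, *Nog* (chr11:89161952-89163873) and *Chrd* (chr16:20733200-20742457) were called lower in heart than in hindbrain, beside 2427 of all 16804 genes tested. *Nog*, noggin, was covered at 9.23%, 5.03%, 8.39% and 9.0% in the 4 null hindbrains, 7.32% and 0.612% in null heart, 0.612% and 8.39% in null carcass and 0.612% in null liver. The first heart and second carcass lay in the hindbrain range and the second heart and first carcass did not. The relative difference was -1.06 ± 0.33 (SE, limma adjusted p = 0.0279) for heart and -1.11 ± 0.33 (SE, limma adjusted p = 0.0544) for carcass against hindbrain, the latter short of the threshold. The heart call was lost in 6 of 17 alternative settings. *Chrd*, chordin, was covered at 0%, 2.60%, 2.60% and 4.15% in null hindbrain and 1.56% and 2.60% in null carcass, and was listed at 0 in both null hearts and in null liver. It was called lower in heart (limma adjusted p = 0.0296), with no fold given, a call lost in 7 of 16 alternative settings. *Grem1* (chr2:113586321-113598803), gremlin, had 2.22%, 3.11%, 3.56% and 5.34% in null hindbrain, 2.22% and 1.78% in null heart, 3.56% and 11.1% in null carcass and 2.67% in the null liver library and was not called, at -0.91 ± 0.34 (SE, limma adjusted p = 0.0566) for heart against hindbrain.

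Settings mattered more for some genes than others. Heart against hindbrain kept its call in all 18 alternatives for 7 of the 21 genes, namely *Smad6*, *Smad7*, *Smad3*, *Bmp7*, *Bmp10*, *Tgfb2* and *Acvr2b*. Without null heart 2 the count was 10 genes, all higher, in place of 21, beside 19.5% of all genes. Heart against carcass kept its call in all 19 alternatives for *Bmp10*, *Smad2* and *Bmp3*. Apart from the losses given beside their genes, the other called genes lost the call in 1 to 5 alternatives against hindbrain and in 1 to 6 against carcass. Without null heart 2 or without null carcass 1, heart against carcass called 8 genes in place of 16, beside 22.6% and 23.6% of all genes. Without scaling between libraries 3 were left, *Bmp10*, *Smad2* and *Bmp3*, beside 13.8%. With log2 values centred on the median of all genes instead, heart against carcass called 4 genes higher and 7 lower, in place of 13 and 3, beside 32.8% of all genes, and carcass against hindbrain called 11 higher in place of 2, beside 16.9%. Of the 2 carcass calls, that of *Smad7* held in all 18 alternatives, and that of *Smad6* was lost in 3, namely without null carcass 1, without null carcass 2 and with a pseudocount of 100 bases. A lone heart or carcass library was taken to vary as the other null groups do.

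Other genes of the pathway gave a mixed picture. Of 65 symbols of further ligands, receptors, modulators and targets, 64 matched a gene of the annotation and 61 were tested between null tissues. Heart against hindbrain called 19 higher and 9 lower, carcass against hindbrain 6 and 6, and heart against carcass 17 and 11, against the background shares above. Called by size in heart against hindbrain were *Nbl1*, a BMP antagonist, at -2.03 ± 0.42 (SE, limma adjusted p = 0.00490), *Id2*, a classical BMP target, at 1.88 ± 0.39 (SE, limma adjusted p = 0.00495), *Zeb1*, a SMAD-binding repressor, at 1.83 ± 0.29 (SE, limma adjusted p = 0.00170), and *Mstn*, myostatin, at 1.70 ± 0.57 (SE, limma adjusted p = 0.0385). In carcass against hindbrain they were *Fstl3*, an activin-binding protein, at -2.47 ± 0.31 (SE, limma adjusted p = 0.00386), *Id2* at 1.90 ± 0.39 (SE, limma adjusted p = 0.0168), *Sostdc1*, a BMP antagonist, at 1.79 ± 0.45 (SE, limma adjusted p = 0.0342), and *Zfyve9*, a SMAD anchor, at -1.79 ± 0.30 (SE, limma adjusted p = 0.00832). In heart against carcass they were *Amhr2*, the receptor of anti-Mullerian hormone, at 2.70 ± 0.31 (SE, limma adjusted p = 0.000695), *Fstl3* at 2.66 ± 0.36 (SE, limma adjusted p = 0.000972), *Inha*, the inhibin alpha subunit, at 2.14 ± 0.30 (SE, limma adjusted p = 0.00117), and *Sostdc1* at -2.12 ± 0.52 (SE, limma adjusted p = 0.0106). Against WT, 56 of 58, 50 of 60 and 47 of 57 tested genes rose in null hindbrain, heart and carcass, close to the 96.6%, 81.2% and 78.2% of all genes called.

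Within the windows, few peaks lay at the start sites themselves. In null hindbrain the first 500 bp of the 34 genes held no peak base in any of the 4 libraries, beside 4.01% of the same bases over all genes. In null heart, carcass and liver the share was 3.49%, 2.34% and 2.94%, beside 6.46%, 5.77% and 3.11%, and these shares came from few genes. *Bmp10* filled its whole bin in both hearts and in liver and gave all of the liver value, and without it the heart share was 0.570% of the other 33 genes. *Bmp5* held 270 and 500 bp of its bin in the 2 carcasses, nearly all of the carcass value. Between 1500 and 2000 bp downstream it was 19.03%, 20.7%, 31.5% and 18.8% in hindbrain, heart, carcass and liver, beside 5.92%, 11.3%, 9.49% and 5.68% over all genes. Upstream, the bin from 1500 to 1000 bp before the start held 11.6%, 15.4%, 20.3% and 15.1% in the same order, beside 4.11%, 7.82%, 6.79% and 3.71% over all genes. Of the 34 genes, 27 have CpG-rich starts, with an observed over expected CpG ratio above 0.6 within 500 bp on either side. Each bin rests on 34 genes and no test was made.

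**Figure D5:**
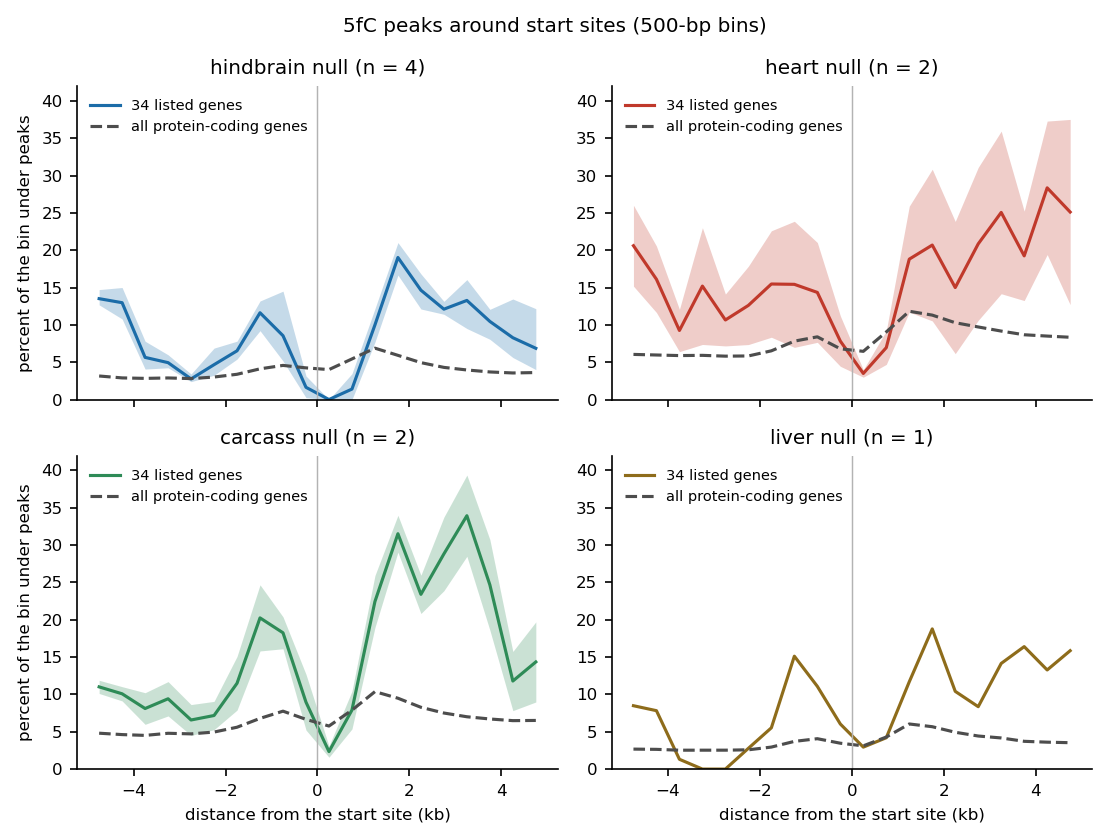
Percent of bases under peaks in 500-bp bins from 5 kb before to 5 kb after the start site (horizontal, kb), in null libraries by tissue. Solid lines are means over libraries for the 34 genes, shaded bands run from the lowest to the highest library and dashed lines are all protein-coding genes; the bin after the start is at 0 in hindbrain and at 3.49%, 2.34% and 2.94% in heart, carcass and liver, mostly from *Bmp10* in heart and liver and *Bmp5* in carcass.

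By gene feature, introns made up 2129 kb of the windows. In null heart 21.2% ± 8.88 of intron bases, 18.1% ± 6.69 of exon bases, 19.3% ± 6.74 of the downstream 5 kb and 11.1% ± 7.11 of the 1000-bp promoters lay under peaks (SD, n = 2), beside 9.01%, 10.6%, 7.51% and 7.60% over all genes. In null hindbrain the values were 7.11% ± 1.20, 6.20% ± 1.15, 5.70% ± 1.78 and 5.10% ± 2.53 (SD, n = 4), beside 4.36%, 5.59%, 3.59% and 4.41%. In null carcass they were 17.4% ± 5.20, 12.6% ± 3.43, 11% ± 3.90 and 13.6% ± 4.15 (SD, n = 2), beside 8.71%, 8.31%, 5.91% and 7.21%. Over the rest of the upstream 5 kb null hindbrain had 7.83% ± 0.660 (SD, n = 4), its most covered feature, beside 3.14% over all genes. Null heart and carcass had 14.4% ± 7.92 and 10.5% ± 3.22 there (SD, n = 2), beside 6.23% and 5.10%. No promoter base of the 34 genes lay under a peak in any of the 10 WT libraries. Over all genes the mean WT share of promoter bases was 0.106% to 0.601% by tissue. The 34 promoters hold 34 kb, a small base for such low shares.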

How the data were processed

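5fC pull-down libraries of E11.5 mouse tissues were sequenced. The authors trimmed the reads, aligned them with Bowtie2 to NCBIM37 (mm9) and called peaks in each library with MACS in SeqMonk, at p = 1e-05 and a fragment length of 200 bp. They deposited start and end positions on a 100-bp grid, with no other values; use of an input and removal of duplicates are not given in the sources used here. Depth is therefore unknown, and the number of embryos limits the precision.

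From these positions, the bases under peaks were summed over each window (GENCODE vM1). Genotypes were compared within hindbrain, heart and carcass on log2(covered bases + 500), and null tissues on log2((covered + 500)/(expected + 500)), with limma 3.58.1 (R 4.3.3, eBayes with trend, Benjamini-Hochberg over all genes tested). Genes averaged at least 200 covered bases over the libraries fitted. Scripts were tested on simulated data. Liver has 1 usable null library and was not tested. Peaks per library were also compared for identity, and 0 pairs of libraries were identical.

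The listed genes, the other pathway genes and the tests were chosen with earlier results of these data known. Values in every library are given for up to 12 called genes per null contrast by p, the 10 most covered in null tissues and those with peaks in at least 5 WT libraries; other pathway genes are named up to 4 per contrast by size. The labels give a litter for each embryo, which pairs the genotypes; deviations of same-numbered samples from their group means correlated at 0.065, 0.0027, -0.025 and -0.091 in the 4 hindbrain litters, at -0.055 in heart, at -0.092 in carcass, and at -0.027 between heart and carcass of the same null embryos. Alternatives changed the pseudocount, filter, window, peak length, measure, scaling and block, and left out each replicate.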

Additional observations from a re-analysis of the deposited data

How the results depend on the processing

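Counts are of the 34 listed genes called. Relative to the covered share of the genome, the genotype comparisons called 16 genes in hindbrain, 11 in heart and 5 in carcass, in place of 34, 30 and 26, beside 46.9%, 38.7% and 18.3% of all genes on that scale. Leaving out 1 replicate at a time gave 31 to 34 genes in hindbrain, 13 to 24 in heart and 0 to 14 in carcass, beside 94.04% to 97.002%, 44.7% to 81.4% and 0% to 62.04% of all genes. Between null tissues it gave 10 to 21 for heart against hindbrain, 1 to 2 for carcass against hindbrain and 8 to 16 for heart against carcass, beside 19.5% to 38.8%, 3.54% to 11.8% and 22.6% to 39.9%. Carcass against hindbrain called 1 gene with a pseudocount of 100 bases, 6 with 2000 bases and 11 after centring on the median over genes, beside 5.32%, 21.4% and 16.9% of all genes. Heart against carcass called 3 genes without scaling between libraries, beside 13.8%. Centring moved the median difference over all genes from 0.20 to 0.05 for heart against hindbrain, from -0.23 to 0.05 for carcass against hindbrain and from 0.42 to -0.01 for heart against carcass. *Bmpr1b* turned from lower to 0.036 higher in heart than in hindbrain without scaling. With the litter as a replicate block 34, 28 and 24 genes were called between genotypes. With the embryo as a replicate block 16 were called in heart against carcass. The block moved no count by more than 1.5 times. These blocked counts have no share of all genes beside them, so they are not read against the background. The causes were not tested. With no heights or read counts, a region without a peak cannot be told from one read too thinly.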
